A study of Mus musculus with 33 samples.

Results

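The 575 regions described here were the long H3K9me3 domains of wild type (WT) mouse embryonic stem cells (mESC). They were chosen by length: of 11285 domains in the WT mESC H3K9me3 list, they were those of at least 300 kb. Domain length came from the H3K9me3 reads of that library, so length, read count and H3K9me3 itself are given as description only. ChIP-seq was done for histone marks, for Uhrf1 and for Oct4, Sox2 and Nanog, which are factors of pluripotency. It is a method that sequences the DNA an antibody pulls down with its target. Compared were WT E14 mESC with Uhrf1 knockout (KO) mESC, and embryoid bodies (EBs), aggregates of differentiating stem cells, grown from each for 1, 2 or 3 weeks. Of 33 samples, 25 had a list of regions, with 1 library for each genotype, stage and target, and the other 8 were inputs. Each genotype was represented by 1 cell line and no group had a replicate, so no p-value is given, and the 95% intervals (Wilson for shares, exact Poisson for densities) cover counting error over domains, genes or windows only.

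H3K9me3 is the trimethylated form of lysine 9 of histone H3 and marks constitutive heterochromatin, which compacts repeats and many tissue-specific gene clusters. Uhrf1 binds H3K9me3 through its tandem Tudor domain and hemimethylated DNA through its SRA domain, and recruits Dnmt1 so that DNA methylation is copied after replication. H3K27me3 is laid down by Polycomb repressive complex 2 and marks developmentally silenced chromatin, whereas H3K4me3 marks active or poised promoters.

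The long domains together covered 383.5 Mb. Their lengths ran from 300.6 to 8354 kb, with a median of 464 kb and an interquartile range of 360.0 to 677 kb. At the border of the rule, 4 domains of 300.6 kb were the shortest inside and 5 of 298.8 kb the longest outside. Of those inside, 2 lay at chr10:28560601-28861200, with the gene 2310057J18Rik, and at chr14:93240001-93540600, where no protein-coding gene was inside. Just outside lay chr6:24921001-25219800, without a gene, and chr6:56885401-57184200, with 11 Vmn1r genes that include Vmn1r8, Vmn1r6, Vmn1r5 and Vmn1r9. All coordinates of domains are of mouse build NCBIM37 (mm9).

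Promoter sequences of genes inside long domains are shown first, because their low count of CpG, the dinucleotide that carries DNA methylation, set these genes apart from others as described below. They are the RefSeq promoters (build GRCm38.p6, 250 bases before to 50 after the start) of an olfactory receptor, a V1R and a V2R vomeronasal receptor gene, each the first in the long domain with most genes of its family, and of the homeobox gene Hoxb8, added for contrast after its values were seen. Capitals mark CpG.

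Olfr996, chr2:85578965-85579264, plus strand: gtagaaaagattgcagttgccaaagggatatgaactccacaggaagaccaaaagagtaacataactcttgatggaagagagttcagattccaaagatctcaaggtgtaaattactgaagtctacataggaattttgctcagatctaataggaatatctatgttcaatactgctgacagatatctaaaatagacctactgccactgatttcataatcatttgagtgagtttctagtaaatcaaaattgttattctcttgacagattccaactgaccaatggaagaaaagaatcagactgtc
Vmn1r191, chr13:22179533-22179832, minus strand: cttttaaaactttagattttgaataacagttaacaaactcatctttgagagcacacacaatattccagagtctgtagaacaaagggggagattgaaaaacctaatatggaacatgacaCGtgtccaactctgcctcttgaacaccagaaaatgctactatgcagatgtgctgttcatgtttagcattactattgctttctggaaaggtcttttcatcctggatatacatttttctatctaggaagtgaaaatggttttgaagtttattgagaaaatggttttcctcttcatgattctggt
Vmn2r8, chr5:108808705-108809004, minus strand: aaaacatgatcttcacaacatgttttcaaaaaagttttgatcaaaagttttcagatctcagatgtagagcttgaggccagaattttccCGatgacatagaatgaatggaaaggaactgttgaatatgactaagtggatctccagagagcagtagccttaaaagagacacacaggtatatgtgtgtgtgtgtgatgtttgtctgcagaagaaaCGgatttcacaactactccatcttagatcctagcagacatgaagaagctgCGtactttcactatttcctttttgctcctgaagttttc
Hoxb8, chr11:96281655-96281954, plus strand: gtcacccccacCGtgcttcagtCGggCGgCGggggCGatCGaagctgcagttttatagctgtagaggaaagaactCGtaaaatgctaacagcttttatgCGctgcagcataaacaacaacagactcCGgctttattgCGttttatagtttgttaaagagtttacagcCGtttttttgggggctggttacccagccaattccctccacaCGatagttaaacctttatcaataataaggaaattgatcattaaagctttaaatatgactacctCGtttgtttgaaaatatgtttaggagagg

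The olfactory receptor promoter held 0 CpG, the V1R promoter 1, the V2R promoter 3 and the Hoxb8 promoter 13. Promoter here means sequence around an annotated start, and whether transcription begins at these starts was not checked.

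Long domains were not spread evenly over the chromosomes. Chromosomes 8 and 11 held 64 long domains each, which covered 68.4% and 53.2% of these chromosomes, against 2.71% to 16.1% (median 10.3%) of each of the 17 other autosomes. Together these 128 domains were 22.3% of the long domains but 40.4% of their base pairs. Their median length was 791 kb, against 430.2 kb for the 447 domains on other chromosomes, and all 5 of the longest lay on chromosome 8. Chromosomes X and Y held 0 long domains. The excess was also seen in other libraries. WT mESC H3K27me3 domains covered 64.1% of chromosome 8, 56.2% of chromosome 11, 22.0% to 45.0% of the other autosomes and 6.81% of X. KO H3K9me3 domains covered 96.3% of chromosome 11 but 30.6% of chromosome 8, within the 14.2% to 58.5% of the other autosomes. WT mESC H3K4me3 domains covered 23.4% of chromosome 11 and 12.6% of chromosome 8, against 5.12% to 10.8% of the other autosomes. The number of copies of each chromosome in these lines was not measured here, and its part in these values was not tested. The counts below are therefore given with and without chromosomes 8 and 11, a split chosen after seeing the data, and where a value is for 1 of these sets the text says which.

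**Figure D1:**
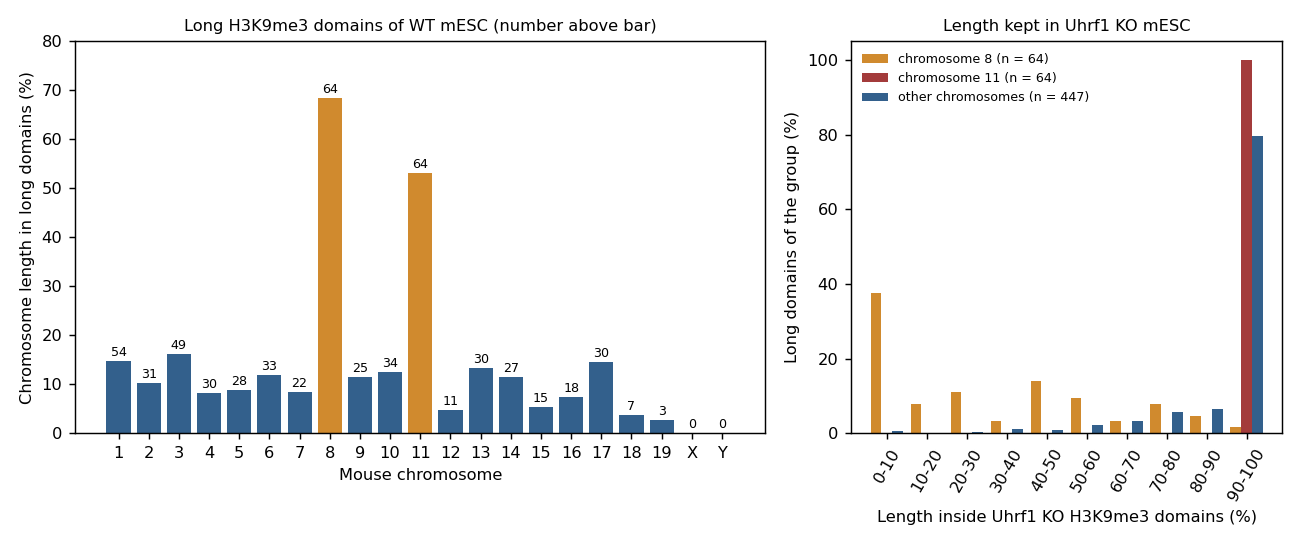
Left, share of each chromosome's length (%) in long WT mESC H3K9me3 domains, with the number of long domains above each bar and chromosomes 8 and 11 in orange. Right, long domains by the share of their length (%) inside Uhrf1 KO H3K9me3 domains, as a percent of the domains on chromosome 8, chromosome 11 and the other chromosomes. Chromosomes 8 and 11 reach 68.4% and 53.2%, and long domains of chromosome 8 spread over low kept shares while those of chromosome 11 fall in the top bin.

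Along the chromosomes, long domains were more frequent near the assembled centromeric ends. They covered 24.5% of the first 5 Mb of sequence after the unassembled start of the autosomes and 13.7% of the last 5 Mb, against 15.5% of autosome length as a whole. Without chromosomes 8 and 11 the values were 20.4%, 12.5% and 10.3%. A long domain lay in the first 5 Mb on 13 of 19 autosomes and in the last 5 Mb on 11 of 19.

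To find what the long domains hold, protein-coding genes of the GENCODE annotation were counted as inside when at least 50% of their length lay in long domains. Large clustered families of receptors and metabolic enzymes lay inside long domains more often than other genes, while 161 long domains held no protein-coding gene. In all, 2288 of 22367 protein-coding genes were inside (10.2%, interval 9.84 to 10.6), and without chromosomes 8 and 11 it was 1475 of 19632 (7.51%). Genes of 34 families, chosen with earlier results of these data known, made up 1146 of the genes inside, and the remaining 1142 came from 19157 genes of no such family (5.96%).

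Chemosensory receptors were the largest group. Of 1113 olfactory receptor genes (Olfr), 635 were inside (57.1%, interval 54.1 to 59.9), in 30 long domains. Each olfactory neuron uses a single such receptor. The pheromone receptors of the vomeronasal organ were close to this, with 109 of 206 Vmn1r genes (52.9%, 46.1 to 59.6) in 16 domains and 67 of 125 Vmn2r genes (53.6%, 44.9 to 62.1) in 20. Bitter taste receptors (Tas2r) had 11 of 35 inside (31.4%). The intervals of the Olfr, Vmn1r and Vmn2r shares lay above the 10.2% of all protein-coding genes, and without chromosomes 8 and 11 the shares were 56.7%, 52.9% and 53.6%. By contrast, 0 of 20 Mrgpr, 0 of 15 Taar and 0 of 30 Rhox genes were inside, with intervals that reached 16.1%, 20.4% and 11.4%. Rhox genes lie on chromosome X, which held 0 long domains, so their value was fixed by the chromosome. In WT H3K9me3 domains of any length lay 6 of the Mrgpr and 12 of the Taar genes, so their 0 is for the 300 kb rule only. Domains of any length, long ones included, held 84.2% of Olfr, 70.4% of Vmn1r, 72% of Vmn2r and 82.9% of Tas2r genes. For all protein-coding genes it was 24.4%, so a high share of these receptors was not particular to long domains.

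Enzyme families of the liver and gut followed. UDP-glucuronosyltransferase genes (Ugt), which conjugate drugs and bilirubin, had 20 of 21 genes inside (95.2%, 77.3 to 99.2). Sulfotransferases (Sult) had 10 of 17 and cytochrome P450 genes (Cyp) 31 of 98 (31.6%), both little changed without chromosomes 8 and 11, at 62.5% and 31.2%. Domains of any length held 95.2% of Ugt, 70.6% of Sult and 48.0% of Cyp genes. Carboxylesterases (Ces) had 16 of 21 inside, but all 21 lie on chromosome 8. C-type lectins (Clec), receptors of immune cells, had 15 of 32 inside (46.9%), and protocadherins (Pcdh), adhesion proteins of neurons, 25 of 36 (69.4%, 53.1 to 82.0).

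Other families changed when chromosomes 8 and 11 were left out. Keratin genes (Krt) had 43 of 97 inside, all in 1 long domain, and 0 of the 48 on other chromosomes. Defensin genes (Def) had 22 of 53 inside and 0 of 18 on other chromosomes, and the developmental homeobox genes (Hox) 10 of 40 inside and 0 of 30 on other chromosomes. The Hox value depended on the length rule. With a minimum of 200 kb 55% of Hox genes were inside, over all chromosomes. In WT H3K9me3 domains of any length lay 37 of the 40 (92.5%), against 24.4% of all protein-coding genes. ADAM metalloprotease genes (Adam) went from 15 of 57 to 2 of 41. Zinc finger genes (Zfp), transcription factors that include silencers of retroelements, had 57 of 399 inside (14.3%), or 41 of 348 (11.8%) without these chromosomes. Solute carriers (Slc) were inside in 25 of 370 cases (6.76%), below all protein-coding genes. Of the 34 families, 11 had 0 genes inside, among them histone genes (0 of 67) and Mage (0 of 22) and Xlr (0 of 25) genes. Most Mage and Xlr genes lie on chromosome X, which held 0 long domains, so their values were largely fixed by the chromosome.

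**Figure D2:**
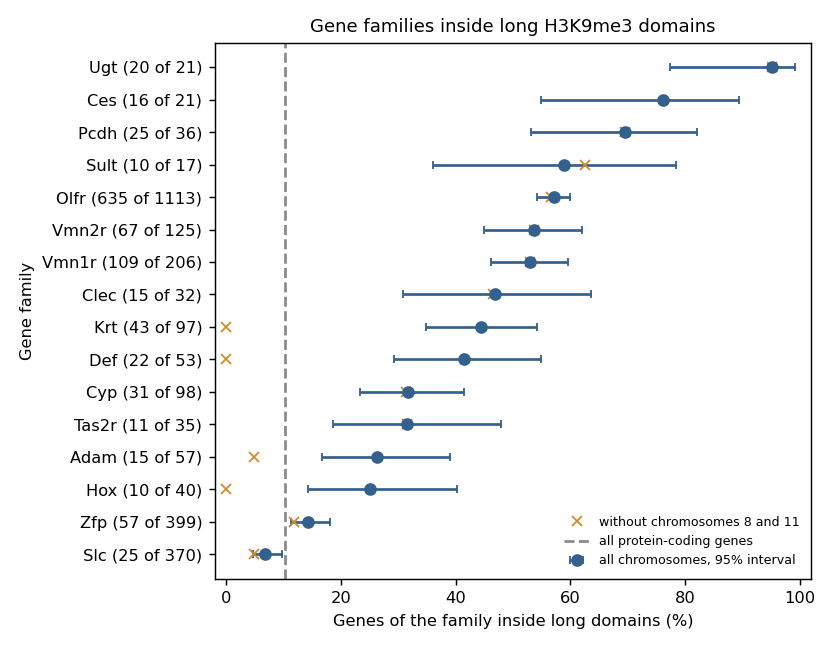
Share of the genes of each family (%) with at least 50% of their length inside long H3K9me3 domains, for the 16 families with at least 10 genes inside. Points with bars are all chromosomes with Wilson 95% intervals, crosses are without chromosomes 8 and 11, and the dashed line is all protein-coding genes (10.2%). Krt, Def and Hox fall to 0 without chromosomes 8 and 11, while Ugt, Olfr, Vmn1r and Vmn2r hardly move.

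The gene content split the long domains into 3 kinds. Clusters, with at least 3 genes of 1 family inside, numbered 81 (14.1%) and held 1276 genes. Another 333 (57.9%) touched other genes, and 161 (28%, interval 24.5 to 31.8) touched no protein-coding gene and are called deserts here. Of all 11285 WT H3K9me3 domains 51.8% touched no protein-coding gene, so long domains were free of genes less often than the whole list, whose domains are mostly shorter. Among the 447 long domains of other chromosomes, 156 were deserts (34.9%).

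The richest clusters show what a long domain of each kind looked like. The longest domain outside chromosomes 8 and 11 was chr2:85381201-87307200 (1926 kb), with 92 genes inside, all of them olfactory receptors, among them Olfr1033, Olfr1030, Olfr1080 and Olfr1082. The domain chr10:128397601-129987000 (1589 kb) held 58 Olfr genes, 4 Vmn2r genes and the neural transcription factor gene Neurod4. The most Vmn1r genes, 19, lay in chr13:22219201-22937400, and the most Vmn2r genes, 7, in chr5:109177201-109674000. The domain chr5:87242401-88023600 held 9 Ugt and 3 Sult genes, and chr6:122853601-123350400 held 9 Clec genes. On chromosome 11, 43 keratin genes and their neighbours lay in chr11:98973001-99997200 and 10 Hoxb genes with Skap1 in chr11:95945401-96570000. On chromosome 8, chr8:18745201-19333800 held 12 defensin genes, chr8:95571001-96422400 held 9 Ces genes and chr8:24566401-26164800 held 5 Adam genes. Of the smaller leads, chr4:114825601-115336800 held 7 Cyp4 genes, chr6:131389201-131947200 held 6 Tas2r genes, chr7:13901401-15298200 held 6 Sult genes, chr11:50616001-51382800 held 6 Zfp genes beside 5 Olfr genes, and chr19:8047801-8544600 held the transporter genes Slc22a28, Slc22a29 and Slc22a30. A further long domain held 22 protocadherin genes, among them Pcdhgc5 and Pcdhb19. The longest desert among the longest 5 outside chromosomes 8 and 11 was chr14:91072801-92563200 (1490 kb), with 0 genes.

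The longest of the list was chr8:98242201-106596000 (8354 kb), with 11 genes inside that include the cadherins Cdh8 and Cdh11. Next came chr8:67368601-71951400 (4583 kb, 28 genes, led by March1 and Csgalnact1), chr8:28238401-32227200 (3989 kb, 10 genes, led by the netrin receptor gene Unc5d), chr8:60073201-63984600 (3911 kb, 11 genes, led by Galntl6) and chr8:49260601-52943400 (3683 kb, 2 genes, Odz3 and 4930555F03Rik).

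Long domains were poor in G, C and CpG. Base composition, read from the assembly, was 39.4% GC and 6.39 CpG per kb in long domains, against 43.0% and 9.35 outside all WT H3K9me3 domains. On the autosomes other than 8 and 11 the difference was wider, at 38.3% and 5.63 inside against 43.3% and 9.59 outside. H3K9me3 domains of 100 to 300 kb were close to long ones, with 39.4% and 6.50 over all chromosomes and 38.9% and 6.10 on these autosomes. Deserts were lowest there, with 37.6% GC and 5.24 CpG per kb, and clusters had 38.9% and 5.69. Long domains of chromosomes 8 and 11 were richer, with 40.9% and 7.52 CpG per kb.

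In 300 bases around the annotated start, the motif CG (the same on both strands) was counted for 22350 protein-coding genes in NCBIM37. Genes inside long domains had a median of 2 CpG, against 13 for genes elsewhere, and 19.3% of them (17.8 to 21.0) had none, against 3.23% elsewhere. Leaving out chromosomes 8 and 11, the medians were 1 and 12, and 26.2% inside and 3.43% elsewhere had none. Among all protein-coding genes 4.88% of promoters held none. Over all chromosomes 245 of 635 Olfr promoters, 37 of 109 Vmn1r and 26 of 67 Vmn2r promoters inside long domains held none. For Olfr the share without CG was 38.6% inside (34.9 to 42.4) and 27.4% elsewhere (23.6 to 31.6). Median counts inside and elsewhere were 1 and 1 for Olfr, 1 and 2 for Vmn1r and 1 and 1 for Vmn2r. These families were thus low in CpG wherever they lay, and their number inside is part of the difference over all genes. Genes of no fixed family had a median of 6 inside and 14 elsewhere, or 3 and 14 without chromosomes 8 and 11.

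To ask how Uhrf1 was placed, the 10 kb windows listed as enriched for Uhrf1 in WT mESC were counted by their midpoint. Uhrf1 windows were found in most long domains. Within chromosome 11 and over the autosomes other than 8 and 11, their density was highest in the longest class of domains. Among the domain classes of chromosome 8 the longest was also highest, but its interval overlapped that of the 100 to 300 kb class. At least 1 window lay in 517 of 575 long domains (89.9%, interval 87.2 to 92.1), against 28.2% of all 11285 domains, most of which are far shorter. On chromosomes other than 8 and 11 it was 419 of 447 (93.7%). Long domains held 2417 windows, 17.7% of all, at 6.30 per Mb (6.05 to 6.56), against 4.63 per Mb (4.52 to 4.73) outside H3K9me3 domains. The known bases of whole chromosomes had 5.33 per Mb. Over all chromosomes the density was 6.10 (5.83 to 6.39) in domains under 100 kb and 6.78 (6.50 to 7.08) in those of 100 to 300 kb, so it did not keep rising with length. The H3K9me3 and Uhrf1 lists were both called against the WT mESC input, so an error shared through that input cannot be told apart from shared binding.

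On the autosomes other than 8 and 11 the density was 3.70 windows per Mb outside H3K9me3 domains, 6.30 in domains under 100 kb, 7.22 in those of 100 to 300 kb and 8.17 (7.81 to 8.55) in long domains, and no 2 of these intervals overlapped. On chromosome 8 the long domains had 3.72 per Mb (3.33 to 4.14) and sequence outside domains 3.97 (3.106 to 4.999), intervals that overlapped, and domains under 100 kb and of 100 to 300 kb had 1.24 (0.499 to 2.56) and 2.85 (1.94 to 4.05). On chromosome 11 it was 3.29 (2.86 to 3.76) inside and 1.31 (0.908 to 1.83) outside, with 0.544 (0.200 to 1.18) and 1.65 (1.09 to 2.38) in the shorter classes. Over all chromosomes the 6.30 per Mb of long domains thus includes 2 chromosomes that held 40.4% of the length at lower densities. The value outside domains over all chromosomes includes chromosome X, which held 0 long domains and had 12.8 windows per Mb.

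**Figure D3:**
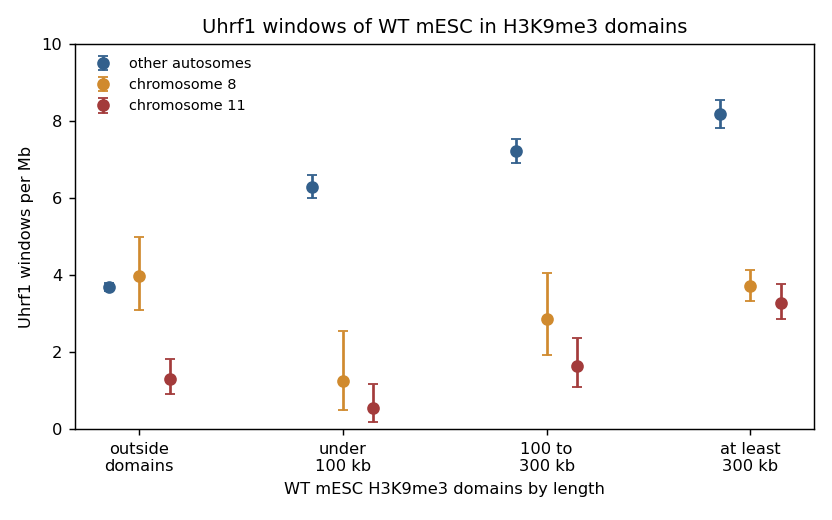
Uhrf1 windows per Mb (not counting N bases) outside WT mESC H3K9me3 domains and in domains of 3 length classes, with exact Poisson 95% intervals, for chromosome 8, chromosome 11 and the other autosomes. From domains under 100 kb to long domains the density goes from 6.30 to 8.17 on the other autosomes, from 1.24 to 3.72 on chromosome 8 and from 0.544 to 3.29 on chromosome 11.

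Among the 447 long domains without chromosomes 8 and 11, gene family clusters had 9.77 windows per Mb (8.84 to 10.8), domains with other genes 8.27 (7.75 to 8.82) and deserts 7.15 (6.56 to 7.79). The intervals of clusters and of deserts did not overlap. Single domains ran from 28 with no window to 37.9 per Mb, with a median of 7.18 and quartiles of 3.98 and 10.8. The domain with the highest density was chr13:13100401-13469400 (369 kb), with 14 windows, the orphan receptor gene Gpr137b and Prl2c5, a member of the placental prolactin family. Its mean H3K9me3 read count of 26.4 per 1800 bp bin compared with a median of 14.7 over long domains. Next came chr7:5709601-6073200, with 12 windows over 4 Vmn1r genes and Nlrp4c, and chr17:57502801-57859200, with 11 over Emr1 and Vmn2r120. The 92-gene Olfr domain of chromosome 2 had 8 windows (4.15 per Mb), and the Hoxb domain had 0.

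To ask whether long domains remained without Uhrf1, the share of each domain's length inside H3K9me3 domains of Uhrf1 KO mESC was computed and called kept from 50%. Nearly all long domains were kept, except on chromosome 8. Of 575 long domains 515 were kept (89.6%, interval 86.8 to 91.8), against 55.4% of all 11285 domains of the list. Leaving out chromosomes 8 and 11, it was 434 of 447 (97.1%, 95.1 to 98.3). On chromosome 11 all 64 were kept, and on chromosome 8 17 of 64 (26.6%, 17.3 to 38.5). The KO list covered 94.8% of the sequence outside WT domains on chromosome 11 and 98.8% of its known bases as a whole, so the 64 kept there do not set long domains apart from the rest of the chromosome. On chromosome 8 it covered 5.55% of sequence outside WT domains.

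Kept shares rose with length on the other autosomes, from 48.1% of domains under 100 kb to 80.6% of those of 100 to 300 kb. The long domains, at 97.1%, exceeded the middle class by 16.5 points (Newcombe interval 13.8 to 18.8). On chromosome 8 the difference was -1.31 points (-16.7 to 14.05), so that no difference was detectable there. In base pairs, long domains of the other chromosomes kept 94.2% and those of chromosome 8 39.0%, while 24.9% of sequence outside WT domains on the other autosomes lay in KO domains. The KO list as a whole covered 43.1% of the known bases of those autosomes.

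Long domains of the other chromosomes mostly lay inside longer KO domains. Of 447, 297 (66.4%) lay whole inside a single KO domain, whose length was 3.56 times theirs in the median. Of the KO domains that held a whole long domain, 55 of 196 held at least 2, and the most was 7. At the other end, 40 of 447 were met by 2 or more KO domains. On chromosome 8, 0 of 64 lay whole inside a KO domain, 30 were met by 2 or more and 17 by none. The longest domain of all, the 8354 kb domain with Cdh8, kept 61.2% of its length in 14 pieces. The other 4 longest kept 41.8%, 24.3%, 71.1% and 55.2%.

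The longest domains with 0% in KO domains were all on chromosome 8. They were chr8:117381601-119129400 (1748 kb, with Wwox and the transcription factor gene Maf), chr8:120101401-121786200 (1685 kb, with Cdh13 and Hsd17b2) and chr8:8701201-9973800 (1273 kb, with Fam155a and Gm10217). In all 19 long domains had 0% in KO domains, 17 of them on chromosome 8. The other 2 were chr6:6562801-6888600, with the homeobox genes Dlx5 and Dlx6, and chr7:11095201-11404800, with 4 Vmn1r genes and Nlrp4b. Of the 13 domains outside chromosomes 8 and 11 that kept less than 50%, lengths ran from 306 to 517 kb and 5 were deserts. Among clusters 67 of 68 were kept there (98.5%), among domains with other genes 216 of 223 (96.9%) and among deserts 151 of 156 (96.8%), intervals that overlapped.

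The edges of the 447 domains showed how far each mark followed the WT border. KO H3K9me3 covered 93.8% of base pairs 50 to 150 kb inside the edges and 73.6% at the same distance outside. WT mESC H3K27me3 covered 59.6% inside and 41.8% outside, and WT EB H3K27me3 of week 2 91.3% and 72.2%. H3K4me3 went the other way, with 2.45% inside and 5.58% outside. Uhrf1 windows covered 8.39% inside and 6.30% outside. Sequence 50 to 150 kb outside an edge was itself 61.1% covered by other WT H3K9me3 domains, so it does not stand for unmarked chromatin.

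**Figure D4:**
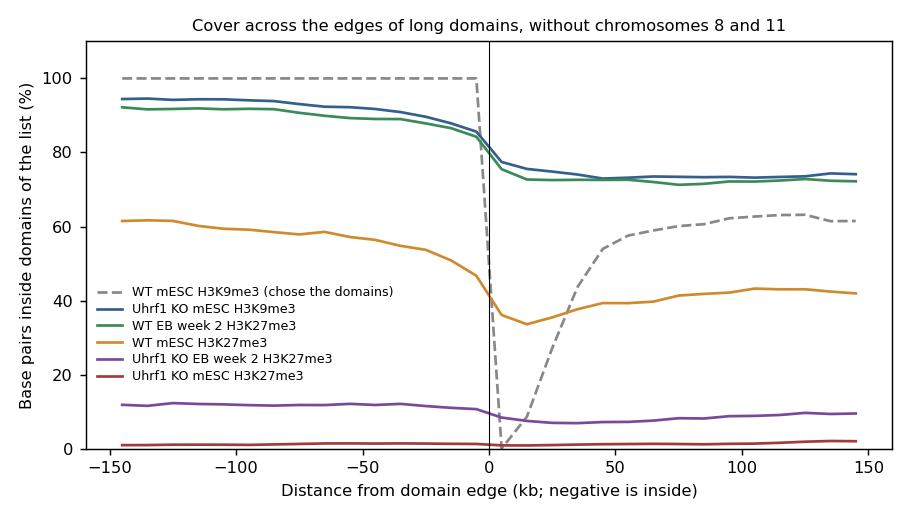
Share of base pairs (%) inside domains of 6 lists, in 10 kb steps from 150 kb inside to 150 kb outside both edges of the 447 long domains without chromosomes 8 and 11. The WT H3K9me3 line is the list that chose the domains. From inside to outside, mean cover 50 to 150 kb from the edge goes from 93.8% to 73.6% for KO H3K9me3 and from 91.3% to 72.2% for WT EB week 2 H3K27me3, and KO mESC H3K27me3 stays at 1.18% and 1.55%.

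To ask whether the same regions carried the Polycomb mark, long domains with at least 50% of their length inside H3K27me3 domains were counted in each of 8 lists. In WT cells most long domains were covered in mESC and nearly all in week 2 EBs, few were covered in week 1 EBs, and in KO cells few were covered at any stage outside chromosomes 8 and 11. In WT mESC 397 of 575 were covered (69.0%, interval 65.1 to 72.7), against 49% of all WT H3K9me3 domains, and this list too shares the WT mESC input with the H3K9me3 list. In WT EBs it was 6 at week 1 (1.04%, against 3.31% of all domains), 506 at week 2 (88.0%, 85.1 to 90.4, against 56.4%) and 240 at week 3 (41.7%, 37.8 to 45.8, against 37%).

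In Uhrf1 KO cells 11 long domains were covered in mESC (1.91%, against 4.13% of all domains), 22 in week 1 EBs (3.83%, against 5.95%), 99 in week 2 EBs (17.2%, against 18.4%) and 126 in week 3 EBs (21.9%, against 17.1%). Without chromosomes 8 and 11 the counts of 447 were 284 (63.5%), 1, 419 (93.7%) and 145 (32.4%) in WT and 4, 4, 32 (7.16%) and 55 (12.3%) in KO. Of the 99 covered in KO at week 2, 26 lay on chromosome 8 and 41 on chromosome 11. At week 2, 390 of the 419 domains covered in WT were not covered in KO (93.1%), and at week 3 71.03% of the 145 were not. The KO lists were smaller over the whole genome too. At week 2 they summed to 467 Mb, against 1165 Mb in WT, and at week 3 to 420 Mb, against 791 Mb.

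The lists themselves differed in size. H3K27me3 domains of WT mESC summed to 960 Mb in 8161 domains, those of WT week 1 to 101.3 Mb in 6673, and those of KO mESC to 84.1 Mb in 722. In base pairs, on the autosomes other than 8 and 11, WT mESC H3K27me3 covered 57.0% of long domains and 26.1% of sequence outside H3K9me3 domains. For WT EBs it was 1.61% and 3.83% at week 1, 91.6% and 30.2% at week 2, and 38.1% and 24.9% at week 3. In KO mESC it was 1.06% and 3.54%, and in KO EBs 1.85% and 8.05%, 10.9% and 17.9%, and 20.4% and 11.5% at weeks 1, 2 and 3. On these autosomes long domains were covered above the outside level in WT mESC, in WT EBs at weeks 2 and 3 and in KO EBs at week 3, and below it in the other 4 lists. Over all chromosomes 2 of those 4 turned, with 4.89% inside and 3.74% outside in WT week 1 EBs and 26.7% and 16.3% in KO week 2 EBs. Where long domains were above the outside level on the autosomes other than 8 and 11, H3K9me3 domains of 100 to 300 kb were too. Those were at 60.8% in WT mESC, 83.0% and 40.5% in WT EBs at weeks 2 and 3 and 19.7% in KO EBs at week 3. Long domains were below that class in WT mESC and at WT week 3, and above it at WT week 2 and KO week 3. Cover above the outside level thus did not set long domains apart from that class. Whether list size, signal or domain calling set these values was not tested.

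**Figure D5:**
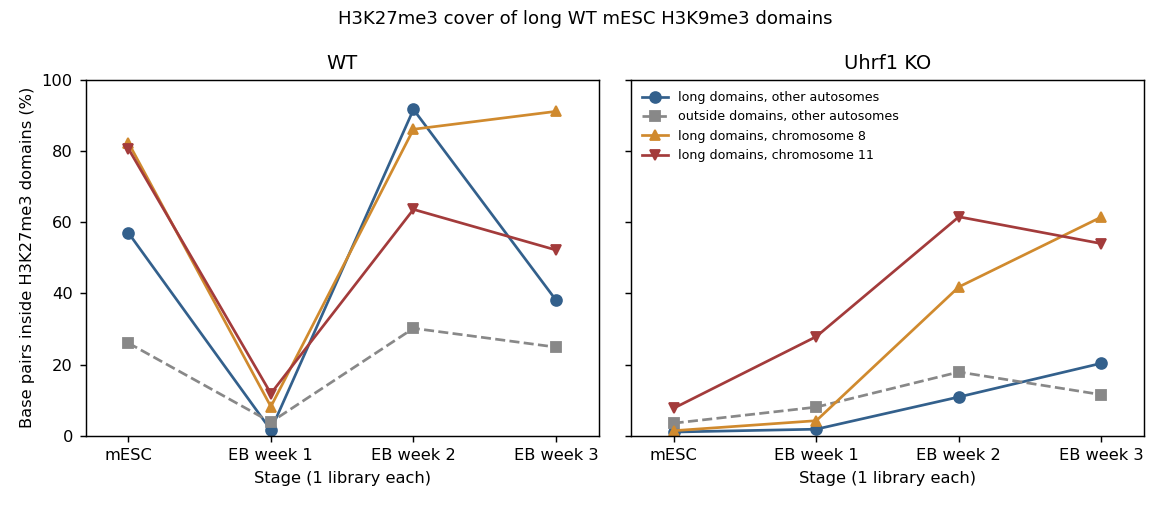
Share of base pairs (%) inside H3K27me3 domains at 4 stages in WT (left) and Uhrf1 KO (right), for long domains of chromosome 8, chromosome 11 and the other autosomes, and for sequence outside WT H3K9me3 domains (dashed). Points are single libraries. On the other autosomes the WT long domains lie at 57.0%, 1.61%, 91.6% and 38.1%, and the KO values do not pass 20.4%.

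On the 2 chromosomes with most long domains the stages differed. Long domains of chromosome 8 were covered to 91.1% at WT week 3 and 61.5% at KO week 3, and those of chromosome 11 to 63.6% at WT week 2 and 61.5% at KO week 2. Deserts of the other chromosomes had 55.3% in WT mESC, 97.9% at WT week 2, 0.0242% in KO mESC and 6.39% at KO week 2. Clusters there had 56.3%, 84.9%, 2.14% and 13.97%.

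The domains with the highest WT mESC H3K27me3 share were wholly covered. The longest were chr11:35796601-37904400 (2108 kb), with the teneurin gene Odz2, chr8:116170201-116962200 (792 kb), with Vat1l, Adamts18, Nudt7 and Syce1l, and chr8:94210201-94993200 (783 kb), with the Iroquois homeobox genes Irx3 and Irx5. The Irx domain held 0 Uhrf1 windows, kept 0% in KO H3K9me3 domains and was still 63.7% covered in WT week 1 EBs.

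Among the 11 long domains covered in KO mESC, named after their values were seen, were the Hoxb domain (99.7%), the Dlx5 and Dlx6 domain (100%), 2 domains of protocadherin genes (100% and 99.5%), a domain with Hs3st3b1 (100%) and a domain with Hydin (99.9%). Of these 11, 5 lay on chromosome 11 and 2 on chromosome 8. The 6 domains covered in WT week 1 EBs shared 2 with them (33.3% of the 6 and 18.2% of the 11), the Hoxb domain at 98.6% and a domain of Ces genes at 57.7%.

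Promoter marks were compared between genes inside long domains and all others. H3K4me3 within 2 kb of the start was found at 700 of 2288 genes inside in WT mESC (30.6%, interval 28.7 to 32.5) and 13427 of 20062 elsewhere (66.9%, 66.3 to 67.6). In KO mESC it was 588 (25.7%) and 12148 (60.6%). The WT shares without chromosomes 8 and 11 were 16.5% inside and 65.0% elsewhere. Over all chromosomes it was 10.6% for genes of the 34 families inside and 50.6% for other genes inside, and the latter was 171 of 528 (32.4%) without chromosomes 8 and 11. CpG count went with this split. Of genes inside with at least 10 CpG in the promoter, 483 of 532 had H3K4me3 in WT mESC (90.8%, 88.0 to 93.0), against 92.4% of such genes elsewhere (91.9 to 92.9), over all chromosomes. Leaving out chromosomes 8 and 11, it was 135 of 161 inside (83.9%, 77.4 to 88.7) and 91.7% elsewhere (91.2 to 92.3), intervals that did not overlap. Of those with fewer, 217 of 1756 inside had it (12.4%, 10.9 to 13.98), against 32.4% elsewhere (31.4 to 33.4), and 8.30% against 30.2% without chromosomes 8 and 11.

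H3K27me3 within 5 kb of the start was found at 1548 genes inside in WT mESC (67.7%, 65.7 to 69.5), against 31.2% elsewhere, and at 1814 inside in WT week 2 EBs (79.3%), against 24.2%. In KO mESC it was 109 inside (4.76%, 3.96 to 5.72) and 7.90% elsewhere, and in KO week 2 EBs 32.2% and 23.2%. The KO week 2 share inside without chromosomes 8 and 11 was 17.6%, below the 22.2% elsewhere.

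To ask whether active marks and pluripotency factors lay in long domains, their domains and summits were counted per Mb. H3K4me3, Sox2 and Nanog were sparser inside than outside H3K9me3 domains in both genotypes. H3K4me3 domains had their midpoint in long domains at 3.33 per Mb in WT mESC (3.15 to 3.52) and 1.89 in KO mESC (1.75 to 2.03), against 7.45 and 5.86 outside H3K9me3 domains. Inside, the values were 2.00 and 1.10 without chromosomes 8 and 11. WT Oct4 summits were denser inside over all chromosomes, at 5.11 per Mb (4.89 to 5.34) against 4.67 outside (4.56 to 4.78). On the autosomes other than 8 and 11 they were at 4.61 (4.33 to 4.89) and 4.73 (4.61 to 4.84), intervals that overlapped. KO Oct4 summits were rare in both, at 0.0782 inside (0.0528 to 0.112) and 0.213 outside, in a list of few summits. Sox2 summits were at 1.66 in WT (1.54 to 1.80) and 4.77 in KO (4.55 to 4.99), against 2.03 and 9.62 outside. Nanog summits were at 0.707 in WT (0.625 to 0.796) and 2.94 in KO (2.77 to 3.12), against 0.908 and 4.55 outside. Without chromosomes 8 and 11 Sox2 was at 1.05 and 3.29 inside, and Nanog at 0.507 and 2.13. H3K9me3 domains of 100 to 300 kb were about as sparse as long ones. Over all chromosomes they had 2.98 H3K4me3 domains, 1.74 Sox2 and 0.806 Nanog summits per Mb in WT mESC, and 1.97, 4.98 and 2.90 in KO mESC.

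The tallest WT summits inside long domains are printed as the extremes of their lists, not as typical sites. Median heights of summits inside long domains were 33 (Oct4), 23 (Sox2) and 22 reads (Nanog). Whether the signal at the printed sites came from binding of the factors was not tested. Each printed sequence is the summit of NCBIM37 with 100 bases on either side, plus strand, with CpG in capitals.

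Oct4, chr15:74917191-74917391: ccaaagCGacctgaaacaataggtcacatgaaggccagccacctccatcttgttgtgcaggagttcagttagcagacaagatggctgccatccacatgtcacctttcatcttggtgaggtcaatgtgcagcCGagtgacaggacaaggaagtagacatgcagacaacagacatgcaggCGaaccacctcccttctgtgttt
Sox2, chr17:39981968-39982168: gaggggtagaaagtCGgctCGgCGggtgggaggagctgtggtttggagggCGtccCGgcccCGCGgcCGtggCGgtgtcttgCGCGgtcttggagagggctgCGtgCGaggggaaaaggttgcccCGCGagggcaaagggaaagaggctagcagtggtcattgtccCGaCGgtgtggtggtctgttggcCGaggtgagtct
Nanog, chr15:74917109-74917309: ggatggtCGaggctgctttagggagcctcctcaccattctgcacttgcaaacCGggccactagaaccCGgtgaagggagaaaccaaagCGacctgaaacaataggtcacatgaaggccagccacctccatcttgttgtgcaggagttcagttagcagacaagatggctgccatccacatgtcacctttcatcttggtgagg

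The Oct4 and Nanog windows overlapped, with summits 82 bases apart at heights of 167 and 105 reads, and the second tallest Sox2 summit (577 reads) lay 25 bases from that of Nanog. The Sox2 window (609 reads) held 18 CpG and 66.7% GC, against a mean of 4.92 CpG over the 638 WT Sox2 windows in long domains. The octamer ATGCAAAT, bound by Oct4, was searched on both strands and was found in 192 of 1960 Oct4 windows inside long domains (9.80%, 8.56 to 11.2, over all chromosomes) and in 10.3% (9.75 to 10.9) of the 10737 elsewhere. The Sox motif AACAAAG, also on both strands, was found, over all chromosomes, in 14.6% of Sox2 windows inside (12.1 to 17.5) and 13.6% elsewhere (12.6 to 14.6). Both pairs of intervals overlapped. The printed Oct4 window did not hold the octamer, and the printed Sox2 window did not hold the Sox motif.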

How the data were processed

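ChIP-seq libraries of both genotypes, from mESC and EBs, were used as lists of regions. The authors aligned reads to mm9 with Bowtie2 2.1.0, and each list came from a single library. RSEG, run with the input as control, gave the histone domains, deposited with a signal (mean read count per bin, 1800 bp in both H3K9me3 lists) and a score. Factor summits were called with MACS and deposited with a signal, the height in reads. Uhrf1 windows of 10 kb were deposited with no value. Read totals were not used here, so the depth behind each list is not given.

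Groups were taken from GEO's labels. The members, the 34 gene families and the split by length were chosen with earlier results of these data known, and the split by chromosomes 8 and 11 after seeing the data. Lists were compared with the NCBIM37 assembly and the GENCODE annotation of that build, and 0 pairs of list and chromosome ran past a chromosome end. Python 3.11 was used with numpy 2.4.6 for overlaps, scipy 1.17.1 for intervals and matplotlib 3.10.9 for plots. A domain counted as covered from 50% of its length, windows and H3K4me3 domains by midpoint. On simulated regions 0 of 4800 overlap counts were wrong.

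Domains were named as the 5 longest, the 3 with most Uhrf1 windows per Mb, the 3 with the lowest kept share, the 3 with the highest WT mESC H3K27me3 share (ties to the longer), the leading domain of each family with at least 10 genes inside and 2 on each side of 300 kb, and others as said in the text. Alternatives were minimum lengths of 200 and 500 kb, other overlap rules, and the part of each list with scores or heights over its median. The assembly used was not marked for repeats, so repeat content is not given.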

Additional observations from a re-analysis of the deposited data

Results flagged for a closer look

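The difference between Uhrf1 KO and WT in the share of base pairs of long domains inside H3K27me3 domains did not have the same sign at every stage. KO minus WT was -64.7 percentage points in mESC, 1.92 in week 1 EBs, -58.9 in week 2 EBs and -17.2 in week 3 EBs. Without chromosomes 8 and 11 the differences were -56.0, 0.245, -80.7 and -17.7 points. At week 1 both values were low, at 4.89% in WT and 6.81% in KO. The H3K27me3 lists differed in total size and in signal, as given above, and the part of this in these differences was not tested.

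For H3K4me3 the same difference was -1.49 points in mESC, -0.646 in week 1 EBs, -1.75 in week 2 EBs and 0.0185 in week 3 EBs. Without chromosomes 8 and 11 it was -0.614, -0.223, -0.557 and 0.199 points. H3K4me3 domains were called in bins of 1300 bp in mESC and of 350 or 400 bp in EBs, so mESC and EB shares are not on the same measure. At weeks 1 and 2 the bins were 400 bp in WT and 350 bp in KO. Each stage and genotype had 1 library, so these differences between stages were not tested.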

How the results depend on the processing

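Of 111 alternatives over 21 results, 57 moved the value by less than its counting interval and 54 by more. Of 168 over the 34 gene families, 147 and 21 did. Leaving out chromosomes 8 and 11, chosen after seeing the data, gave 97.1% kept, 8.17 Uhrf1 windows per Mb, 93.7% of long domains with a window, 34.9% without a protein-coding gene and 7.51% of genes inside. With it, H3K27me3 shares were 63.5%, 0.224%, 93.7% and 32.4% in WT mESC and EBs of weeks 1, 2 and 3, and 0.895%, 0.895%, 7.16% and 12.3% in KO. H3K4me3 was at 2.00 (WT) and 1.10 (KO) per Mb, Oct4 at 4.61 (WT), Sox2 at 1.05 and 3.29, and Nanog at 0.507 and 2.13. Krt, Def and Hox fell to 0% of genes inside.

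A minimum of 200 kb gave 82.8% with a Uhrf1 window, 35.8% without a gene, 13.3% of genes inside and 0.121 KO Oct4 summits per Mb. A minimum of 500 kb gave 85.0% kept, 5.78 Uhrf1 windows per Mb, 94.7% with a window, 19.8% without a gene, 7.07% of genes inside and 3.58 WT H3K4me3 domains per Mb. The kept share was 96.7% at 1 bp, 73.2% at 90% of the length and 82.2% of base pairs. With at least 3 Uhrf1 windows it was 61.4% of domains. As a share of base pairs, H3K27me3 cover was 4.89% (WT week 1), 52.9% (WT week 3), 6.81% (KO week 1), 26.7% (KO week 2) and 35.7% (KO week 3). Domains without any annotated gene were 11.3%, and by gene midpoint 36.5%. Genes inside were 10.7% without chromosome X, 10.9% at 1 bp and 9.64% for whole genes. Above the median score or height, H3K27me3 was 63.3% (WT mESC) and 37.7% (WT week 3), H3K4me3 1.39 and 0.821 per Mb, Oct4 2.21 and 0.0521, Sox2 0.863 and 2.54, and Nanog 0.365 and 1.56 (WT and KO). The cause of these moves was not tested.

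No paired analysis was possible because each genotype, stage and target had 1 library and the results come from no test.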

Other observations

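Across the 447 long domains without chromosomes 8 and 11, the density of Uhrf1 windows had a Spearman correlation of 0.341 with the mean H3K9me3 read count per bin, 0.251 with GC content, 0.0671 with length and -0.0721 with the kept share. The first of these joins measures called against the same input. The share under WT mESC H3K27me3 had a Spearman correlation of 0.501 with that of WT week 3 EBs and 0.193 with that of WT week 2 EBs, where most domains were near full cover. These are descriptions over domains, which are not replicates.

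Chromosome X, with 0 long domains, had 2130 Uhrf1 windows, or 12.8 per Mb, the highest density of any chromosome, beside 2.30% cover by WT and 0.298% by KO H3K9me3 domains.

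Long domains under H3K27me3 from 50% of their length in WT mESC and in WT EBs of weeks 2 and 3 numbered 204 of 575 (35.5%). A further 150 (26.1%) were covered at week 2 and not in mESC, 41 (7.13%) in mESC and not at week 2, and 23 (4%) in none of the 4 WT lists. These counts were 127, 147, 12 and 14 of 447 without chromosomes 8 and 11.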
